A study of Mus musculus with 6 samples.

Results

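The baseline of the adult mouse aortic valve was described from the 3 control libraries, those whose genotype is labelled wild type, out of the 6 libraries sequenced. A gene was counted as detected when it held 10 or more fragment counts in each of the 3 controls, and 14684 of the 23107 genes listed met that rule. The other libraries, 3 from caAcvr1:Nfatc1Cre mutants, were not compared here.

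The aortic valve separates the left ventricle from the aorta. Its leaflets are thin sheets of connective tissue in which valve interstitial cells, fibroblast-like cells that make and maintain the matrix, lie between layers rich in collagen, proteoglycan and elastin. Valve endothelial cells, which share an origin with the endocardium lining the heart, cover both faces. The leaflets attach at a root where the smooth muscle of the aortic wall meets the heart muscle, and resident macrophages are a normal part of the tissue.

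Total RNA of aortic valve tissue from mice 4 months old, of a strain given only as outbred, was sequenced to ask how valves that express a constitutively active form of Acvr1, a BMP type I receptor, differ from controls. In the mutants the transgene is switched on by Cre placed in the Nfatc1 locus, a gene of the endocardial and valve endothelial lineage. The study's methods allow control animals that carry the transgene alone, Cre alone or neither, and the sources used here do not say which of these the sequenced controls were, how many animals went into a library, or their sex. The libraries are numbered replicates of 1 group, so the spread given below is that between these 3 samples and may hold technical as well as animal differences.

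The controls held 55728852, 48524674 and 46180667 fragment counts in replicates 1, 2 and 3, and 3 counts, the smallest number treated as a signal, correspond to 0.0538, 0.0618 and 0.0650 CPM (counts per 1000000). Between 16989 and 17206 genes had any count in a given control. Replicate 2 stood apart from the other controls before any gene was singled out. The SD of the log2 ratio across the detected genes was 0.69 between replicates 1 and 2 and 0.62 between replicates 2 and 3, against 0.47 between replicates 1 and 3. The sex-linked genes divided the controls differently. Xist, the RNA that coats the inactive X chromosome, stood at 54.5 CPM in replicate 1, 0.297 CPM in replicate 2 and 0.630 CPM in replicate 3. Ddx3y, a helicase gene on the Y chromosome, stood at 0.261, 104 and 98.8 CPM in the same order. Replicate 1 was thus opposite to both other controls, with the pattern of female tissue where replicates 2 and 3 had that of male tissue. Any difference of replicate 1 from the other controls may therefore hold a difference of sex, whose part was not tested.

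Levels of different genes were compared as transcripts per 1000000 (TPM), which divides each count by the summed exon length of the gene, and directions between libraries for the same gene were read from CPM scaled by trimmed mean of M values (TMM). TPM values of single controls are printed as levels. The distinction matters here because TPM also depends on what else a library holds. Rbm33, the gene with the smallest spread in CPM, read 25.1 CPM in each of the 3 controls but 5.76, 6.93 and 5.99 TPM.

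The detected genes spanned a wide range of levels. Over the 14499 detected genes with a known length, the median of the mean TPM was 15.8, with quartiles at 4.39 and 45.4 TPM. The 1st percentile was 0.258 TPM and the 99th was 873 TPM, a span of 3.53 on the log10 scale. The extremes were Beta-s, the adult beta-globin gene now named Hbb-bs, at 25270 TPM and the long noncoding RNA gene 3110039I08Rik at 0.0614 TPM. They are 5.61 apart on the log10 scale. The lead of Beta-s came from replicate 1, at 44267 TPM. In replicate 3 it stood at 16119 TPM, below Nppa, described next, at 42584 TPM.

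Genes were most numerous in the middle of this range, and most RNA came from its top. Genes between 10 and 100 TPM were the largest class, 7039 genes or 48.5% of those with a length, and held 24.7% of all TPM. The 1591 genes between 100 and 1000 TPM held 40.4%. The 123 genes at 1000 TPM or more, 0.848% of those with a length, held 31.2%. At the other end, 1214 genes below 1 TPM held 0.0689%. Protein-coding genes made up 13883 of the 14684 detected genes (94.5%) and 97.5% to 97.9% of the fragments of a library, while 149 lincRNA genes and 167 antisense genes had median levels of 2.76 and 2.63 TPM.

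**Figure D1:**
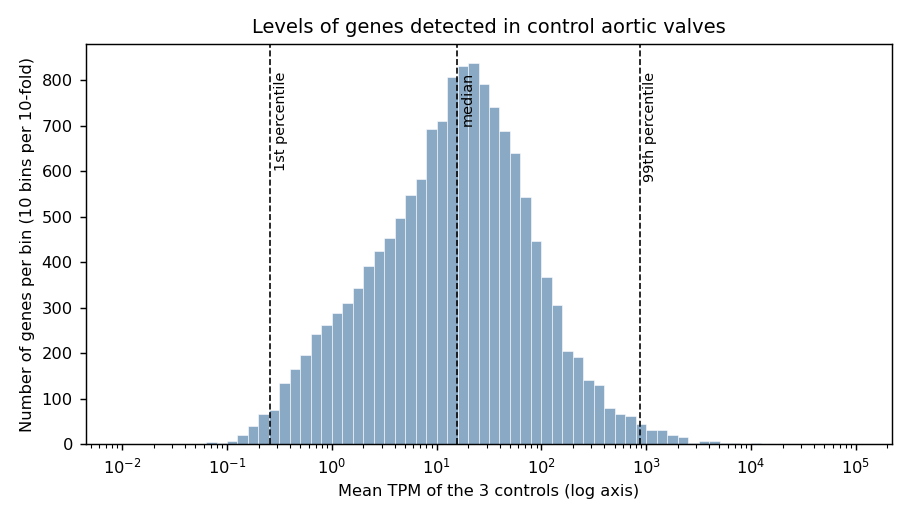
Histogram of the mean TPM of the 3 controls (horizontal log axis) for the 14499 detected genes with a length, with the number of genes per bin on the vertical axis. The distribution centers on a median of 15.8 TPM and tails off to a few genes above 1000 TPM.

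The most abundant transcripts were those of red blood cells, heart muscle and a set of secreted and cytoskeletal proteins of connective tissue. Beta-s stood at 44267, 15426 and 16119 TPM in replicates 1, 2 and 3. Nppa, the atrial natriuretic peptide gene, stood at 11385, 10919 and 42584 TPM, and Myl7, the atrial regulatory myosin light chain, at 8216, 8656 and 20645 TPM. These leading genes were uneven, with replicate 1 high for the globin and replicate 3 high for both atrial genes in CPM as in TPM. The order of the lower controls depended on the scale for Myl7, which was lowest in replicate 1 by TPM and in replicate 2 by CPM.

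Gsn, which encodes the actin-severing protein gelsolin, came next at 13162, 11861 and 8665 TPM (mean 11229 ± 2314, SD, n = 3). By fragments rather than per length Gsn had the highest mean of all genes, with 775405, 548224 and 421591 counts and a mean of 1.14% of the fragments, although in replicate 3 Nppa held more, 567664 counts. Several other genes of the top 20 are not muscle genes. Ftl1 and Fth1, the light and heavy chains of ferritin, averaged 4588 ± 263 and 3647 ± 268 TPM (SD, n = 3). Apoe, the lipid carrier apolipoprotein E, averaged 4208 ± 457 TPM and stood at 3512, 2374 and 2911 CPM. Cst3, the protease inhibitor cystatin C, averaged 3538 ± 359 TPM, and Mgp, the matrix Gla protein that inhibits calcification, 4031 ± 772 TPM.

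A further part of the top 20 was made of muscle genes whose controls diverged. Actc1, cardiac alpha-actin, stood at 10750, 3752 and 9086 TPM, and Mb, myoglobin, at 9009, 2591 and 7613 TPM. Acta2, smooth muscle alpha-actin, stood at 3246, 9526 and 3340 TPM. In CPM as in TPM these heart genes were lowest, and Acta2 highest, in replicate 2. Among the remaining genes of the top 20, Tmsb4x, an actin-monomer-binding peptide, averaged 7509 TPM and Igfbp7, a secreted IGF-binding protein, 5551 TPM.

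Several abundant genes share sequence with close copies or overlapping genes, and their levels cannot be split with certainty. Of the 50-base stretches of the transcripts, 53.2% for Beta-s and 48.2% for Ftl1 also occur in other genes, and 53.4% for Nppa lie in genes that overlap it. For Oaz1-ps, a pseudogene listed at 4159 TPM, the share was 92.1%, while its parent Oaz1 was listed at only 286 TPM. Hba-a1 and Hba-a2, the twin alpha-globin genes, held 396875 and 0 counts in replicate 1 but 0 and 124177 counts in replicate 3, and only their sum was used, 7404, 1814 and 2696 CPM. The 5 globin genes analysed together took 2.02%, 0.602% and 0.736% of the fragments.

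Shares of fragments are over the genes analysed, which include no gene of the mitochondrial genome or of the cytosolic ribosomal proteins. The 10 most abundant genes took 7.79%, 5.14% and 6.66% of the fragments of replicates 1, 2 and 3. The 100 most abundant took 21.5% ± 1.54 and the 1000 most abundant 52.4% ± 1.70 (SD, n = 3). Replicate 2 had the flattest distribution at each of these depths.

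**Figure D2:**
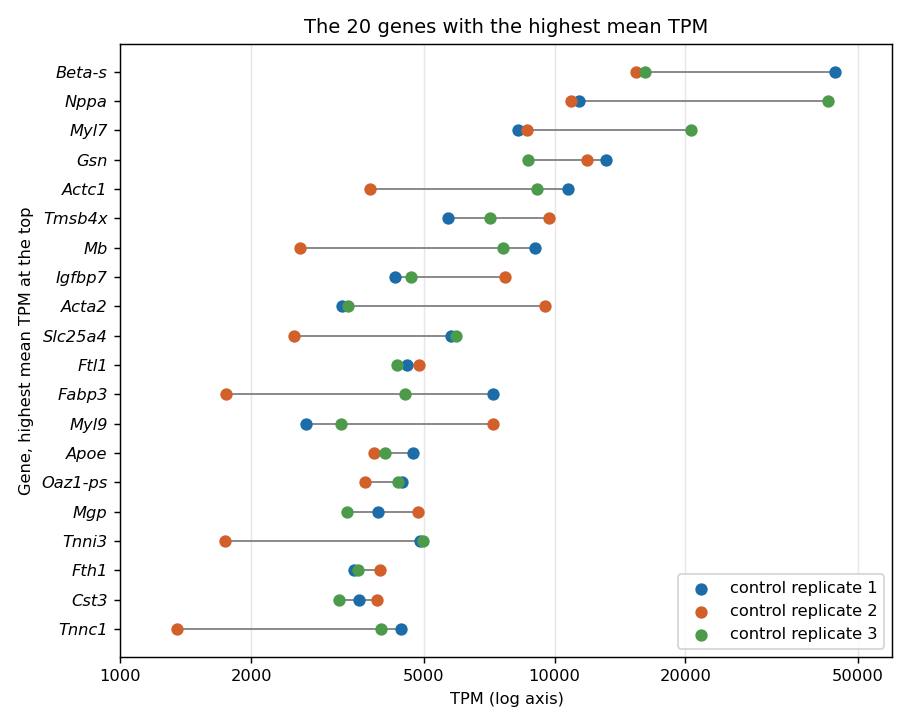
TPM (log axis) of the 20 genes with the highest mean TPM, 1 row per gene, with a point for each control and a line from the lowest to the highest. Beta-s, Nppa and the heart muscle genes show long lines, while Ftl1, Fth1, Apoe and Cst3 show short ones.

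Markers of the labelled tissue were looked for, and all of those listed were present. The same rule for detection passed all 8 melanocyte, 12 smooth muscle and 11 white adipocyte markers. Detection alone therefore cannot tell valve from other tissue. Each of the 15 markers of valve interstitial cells and fibroblasts was detected. Dcn, the small leucine-rich proteoglycan decorin, stood at 2630, 2241 and 2565 TPM, above 99.8% of the detected genes. Lum, the related lumican, averaged 1402 ± 318 TPM and Vim, the intermediate filament protein vimentin, 1397 ± 212 TPM (SD, n = 3). The list as a whole made up 0.880%, 0.947% and 0.909% of TPM, and 1.61%, 1.75% and 1.75% of the fragments. Across all 14684 detected genes, 16.1% had a highest control more than 2 times the lowest in CPM, and 0 of the 15 markers did. The median SD of log2 CPM was 0.212 over the markers and 0.206 over all detected genes, so by this measure the markers were no steadier than a typical gene.

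The 16 transcription factors associated with valve formation were likewise all detected. None of the 16 was over 2-fold apart, beside 16.1% of all detected genes. Of the 16, 11 were highest in replicate 1 and 10 lowest in replicate 2, beside 32.3% and 38.8% of all detected genes. The list medians lay at 0.14, -0.11 and -0.02 on the log2 CPM scale from the mean of the controls. Gata4, a cardiac and cushion mesenchyme factor, stood at 228, 215 and 217 TPM. Meox1, a homeobox factor of mesenchyme, averaged 122 ± 18.0 TPM, and Twist1, a factor of cushion mesenchyme, 73.2 ± 2.83 TPM (SD, n = 3). Sox9, needed for valve precursor expansion and for cartilage, averaged 62.7 ± 10.1 TPM. Gata4 lay above 94.8%, Twist1 above 83.9% and Sox9 above 81.2% of detected genes, while the lowest of the list, Msx2, averaged 1.85 TPM, below the lower quartile of all detected genes.

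Endothelial markers were all detected as well, 17 of 17 for endothelium in general and 12 of 12 for endocardium and valve endothelium. Pecam1, a junctional adhesion molecule of all endothelium, stood at 518, 792 and 679 CPM. Eng, the TGF-beta co-receptor endoglin, stood at 688, 851 and 851 CPM. Of all detected genes 33.1%, 38.8% and 28.1% were lowest, and 32.3%, 39.5% and 28.2% highest, in replicates 1, 2 and 3. For 16 of the 17 general endothelial markers replicate 1 was the lowest control, and the medians over the list lay at -0.23, 0.21 and 0.04 on the log2 CPM scale from the mean of the controls. In bulk tissue, fewer cells of a type and less RNA per cell cannot be told apart. Only Vwf, the platelet-adhesion protein of endothelium, was over 2-fold apart, at 246, 563 and 282 CPM, and it was named after its values were seen.

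Among the endocardial markers Klf2, a factor induced by shear flow, was the most abundant at 465, 516 and 536 CPM or a mean of 852 ± 122 TPM (SD, n = 3). Wnt9b, a Wnt ligand of valve endothelium, was among the steadiest, at 134, 142 and 137 CPM. Plvap, Edn1 and Npr3, singled out after their values were seen, were the 3 of 12 that were over 2-fold apart, each with replicate 2 highest. Edn1, the endothelin-1 gene, stood at 17.6, 60.5 and 24.8 CPM.

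The genes manipulated by the study sat at moderate levels in these controls. Acvr1, at chr2:58388644-58567157 on GRCm38, stood at 49.1, 60.5 and 67.3 CPM and averaged 38.0 ± 7.68 TPM (SD, n = 3), above 71.2% of detected genes. Nfatc1, the calcineurin-dependent factor whose locus carries Cre in the mutants, stood at 135, 161 and 116 CPM and averaged 57.7 TPM, above 79.6% of detected genes. Neither was over 2-fold apart. Of the 21 BMP and GDF ligand genes 19 were detected, led by Bmp6 at 89.5, 217 and 148 CPM and Bmp4 at 51.0, 134 and 61.9 CPM. For both ligands replicate 2 was the highest and replicate 1 the lowest. Of the 19 ligands 12 were over 2-fold apart, beside 16.1% of all detected genes, and 9 were highest in replicate 2, 8 in replicate 3 and 2 in replicate 1. Smad6, an inhibitory SMAD that BMP signals induce, averaged 250 ± 58.6 TPM (SD, n = 3).

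Read per length, the proteoglycan and matricellular lists took larger shares than the collagen chains, but by fragments the order differed between the controls. The collagen chains took 0.792%, 1.25% and 0.976% of the fragments of replicates 1, 2 and 3, the proteoglycan list 1.03%, 0.891% and 0.977%, and the matricellular list 0.822%, 1.01% and 0.871%. The collagen chains led in replicate 2 and were the lowest of these in replicate 1. The proteoglycan and hyaluronan list took 0.680% ± 0.0271 of TPM (SD, n = 3), with 21 of 23 members detected. Of the 21, 8 were over 2-fold apart, beside 16.1% of all detected genes. After Dcn and Lum came Prelp, a heparin-binding leucine-rich proteoglycan, at 1096 ± 165 TPM. Vcan and Acan, the large hyaluronan-binding proteoglycans, averaged 7.20 and 4.68 TPM. Vcan stood at 38.7, 26.4 and 36.9 CPM and Acan, which was over 2-fold apart, at 4.70, 20.8 and 6.47 CPM, both singled out after their values were seen.

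The matricellular and adhesive list took 0.963% ± 0.156 of TPM with 22 of 22 detected, led by Mgp and by Sparc, a collagen-binding matricellular protein, at 1772 ± 520 TPM (SD, n = 3). All collagen chains took 0.381% ± 0.107, with 39 of 43 detected, and the fibrillar ones 0.225% ± 0.0560, with 9 of 11 detected. By fragments the fibrillar ones took more, a mean of 0.667%. Col3a1 stood at 726, 1462 and 935 TPM. Col1a1 stood at 510.5, 683 and 747 TPM and Col1a2, its partner in the type I collagen trimer, at 315, 465 and 380 TPM. The ratio of Col1a1 to Col1a2 counts was 0.856, 0.775 and 1.04, lowest in replicate 2 and highest in replicate 3. Col2a1, the cartilage collagen, held 126, 1 and 11 counts and was below the rule for detection.

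Genes of the elastic fiber and the basement membrane were mostly highest in replicate 2. Of the 19 elastic fiber genes, all detected, 14 were highest in that library, beside 39.5% of all detected genes, and 4 were over 2-fold apart, beside 16.1% of all detected genes. Eln, tropoelastin, stood at 1049, 2556 and 1284 CPM. Mfap4, a microfibril-associated glycoprotein, was by contrast even at 489, 539 and 505 CPM. Of the 22 basement membrane genes detected, 19 were highest in replicate 2, among them Col4a1, a type IV collagen chain, at 536, 846 and 693 CPM. Smooth muscle markers moved the same way between the libraries, and their part in these values was not tested.

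Muscle genes held a large share of the RNA, and the kinds of muscle differed between the controls. The 12 smooth muscle markers took 0.992%, 2.62% and 1.05% of TPM. All 12 were highest in replicate 2, beside 39.5% of all detected genes, and 7 of 12 were over 2-fold apart, beside 16.1%. Acta2 stood at 2482, 6055 and 2454 CPM, and Myh11, the smooth muscle myosin heavy chain, at 975, 2366 and 973 CPM. Between replicates 1 and 3 the difference was over 2-fold for 0 of the 12 and for 4.81% of all detected genes, so the count is near the background.

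The 15 markers shared by atrial and ventricular heart muscle ran the other way. All 15 were lowest in replicate 2, beside 38.8% of all detected genes, and all 15 were over 2-fold apart, beside 16.1%. Their summed level was 38727, 11294 and 30856 CPM, or 4.20%, 1.41% and 3.55% of TPM. Tnnt2, cardiac troponin T, stood at 4514, 1555 and 4747 CPM. Between replicates 1 and 3 the difference was over 2-fold for 0 of the 15 and for 4.81% of all detected genes, so this count is near the background. The ratio of Tnnt2 to Myh11 counts was 4.63, 0.657 and 4.88, so Tnnt2 held more counts than Myh11 in replicates 1 and 3 and fewer in replicate 2. The list of shared heart muscle markers alone took less of TPM than the smooth muscle list in replicate 2. The atrial markers described next added 2.16% of TPM there. By fragments the shared heart muscle, atrial and smooth muscle lists took 1.18%, 0.571% and 1.83% of that library, so the atrial part was smaller on that scale.

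The chamber markers added a further difference, between replicates 1 and 3. Atrial markers took 2.14%, 2.16% and 6.81% of TPM, and the 4 that were detected, Nppa, Myl7, Sln and Myl4, were all highest in replicate 3. Bmp10, an atrial BMP ligand, had 0 counts in each control. Ventricular markers took 0.719%, 0.122% and 0.425% of TPM. Myl2, the ventricular regulatory light chain, stood at 1985, 237 and 815 CPM. The ratio of Nppa to Myl2 counts was 1.73, 11.5 and 15.1, so the balance of atrial to ventricular genes was lowest in replicate 1. Acta1, skeletal alpha-actin, which heart muscle also makes, stood at 1254, 60.2 and 120 CPM, while Tnnt1, slow skeletal troponin T, reached no more than 16.1 CPM. Of the 8 skeletal muscle markers detected, Acta1 among them, 5 were highest in replicate 3 and 2 in replicate 1.

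Muscle-specific promoters often carry a CArG box, the binding motif of serum response factor, a CC and a GG around a run of A and T. The 200 bases before the start are given for 4 of these genes, 5′ to 3′ on the gene's own strand from RefSeq on GRCm38.p6, because each window holds the motif and the genes come from heart, skeletal and smooth muscle. The capitals mark the CArG box.
Actc1: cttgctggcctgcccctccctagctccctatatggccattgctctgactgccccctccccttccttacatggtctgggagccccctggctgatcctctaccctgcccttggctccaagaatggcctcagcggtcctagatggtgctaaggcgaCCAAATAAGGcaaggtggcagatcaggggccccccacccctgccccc
Acta1: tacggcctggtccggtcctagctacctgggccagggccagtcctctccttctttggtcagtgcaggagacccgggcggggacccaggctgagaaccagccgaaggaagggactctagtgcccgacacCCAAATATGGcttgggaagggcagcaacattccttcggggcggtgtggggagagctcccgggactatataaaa
Myl7: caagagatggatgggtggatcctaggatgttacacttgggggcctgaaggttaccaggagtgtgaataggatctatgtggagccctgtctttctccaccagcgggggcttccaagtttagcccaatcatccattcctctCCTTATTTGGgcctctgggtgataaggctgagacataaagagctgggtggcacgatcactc
Myl9: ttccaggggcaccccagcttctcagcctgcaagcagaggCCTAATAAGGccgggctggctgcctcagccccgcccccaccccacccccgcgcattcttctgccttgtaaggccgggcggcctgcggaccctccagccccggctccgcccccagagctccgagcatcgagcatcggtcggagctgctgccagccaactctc
The windows are chr2:114052876-114053075 on the minus strand for Actc1, chr8:123894776-123894975 on the minus strand for Acta1, chr11:5898783-5898982 on the minus strand for Myl7 and chr2:156775264-156775463 on the plus strand for Myl9.

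The box began 47 bases before the start in Actc1, 73 in Acta1, 61 in Myl7 and 161 in Myl9. Searched on both strands from 250 bases before the start to 50 after it, the box was present in 134 of the 11347 promoters of detected genes (1.18%) and in 2 of the 15 of the shared heart muscle list. A match describes the letters of the window and not a bound site. Actc1 and Acta1 were both highest in replicate 1 and lowest in replicate 2. Myl7 was highest in replicate 3, and Myl9, the smooth muscle regulatory light chain, in replicate 2, at 2426 CPM against 1080 and 1255 CPM. The genes were chosen with their values known, so nothing is read from their order.

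Nuclear genes of oxidative phosphorylation were lowest where the heart muscle markers were, and the part of heart muscle in their values was not tested. All 57 were detected and took 5.97%, 3.29% and 5.93% of TPM. Replicate 2 was the lowest control for 56 of the 57, beside 38.8% of all detected genes, and 42 were over 2-fold apart, beside 16.1%. Between replicates 1 and 3 this was so for 0 of 57, beside 4.81% of all detected genes. Cox6a2, the heart and skeletal muscle form of a cytochrome c oxidase subunit, stood at 1010, 280.3 and 886 CPM. Cox4i1, a subunit used by most cells, stood at 1366, 612 and 1313 CPM.

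Macrophage markers were all detected, 13 of 13. None was over 2-fold apart, beside 16.1% of all detected genes, and 8 were highest in replicate 1 and 9 lowest in replicate 2. Their summed level was 1786, 1622 and 1660 CPM, or 0.342%, 0.368% and 0.333% of TPM, so the place of replicate 2 depended on the scale. Lyz2, lysozyme of myeloid cells, stood at 797, 725 and 747 CPM, and C1qb, a chain of complement C1q, at 226, 197 and 221 CPM. MHC class II and dendritic cell markers had 7 of 8 over 2-fold apart and 7 of 8 highest in replicate 1. Cd74, the invariant chain, stood at 948, 411 and 673 CPM.

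Lymphocyte markers were low. The T cell list took 0.000932% of TPM and the B and plasma cell list 0.00151%, as means of the controls, and replicate 1 was highest for 6 of the 7 detected markers of each. Cd2, an adhesion molecule of T cells, stood at 3.96, 1.90 and 1.11 CPM, and Cd79b, part of the B cell receptor, at 4.42, 1.44 and 1.15 CPM. None of the 6 thymocyte markers was detected, and Rag1, Rag2 and Foxn1 had 0 counts in each control. The globins, Alas2 and the other erythroid markers were all highest in replicate 1. Alas2, the heme synthesis enzyme of red cells, stood at 1154, 432 and 440 CPM.

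The 6 platelet markers were all detected and all lowest in replicate 2, beside 38.8% of all detected genes. Their median there lay at -0.52 on the log2 CPM scale from the mean of the controls. Only 2 of 6 were over 2-fold apart, beside 16.1% of all detected genes, a count too small to tell from that share. Pf4, the most abundant of them and a platelet chemokine, differed little, at 60.9, 59.3 and 61.5 CPM. Mast cell markers were lower in replicate 3, with Tpsb2, a mast cell tryptase, at 30.7, 26.3 and 13.9 CPM. All 6 detected mast cell markers were highest in replicate 1.

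Markers of tissue around the valve were present and differed widely between the controls. All 8 mesothelial and epicardial markers detected were highest in replicate 2 and lowest in replicate 1, beside 39.5% and 33.1% of all detected genes. All 8 were over 2-fold apart, beside 16.1% of all detected genes. Their summed level was 142 CPM in replicate 1, 1454 CPM in replicate 2 and 278 CPM in replicate 3. Upk3b, a surface protein of mesothelium, stood at 30.4, 448 and 64.4 CPM, and Msln, mesothelin, at 45.2, 310 and 75.3 CPM. Even without replicate 2, 5 of the 8 differed over 2-fold between replicates 1 and 3, beside 4.81% of all detected genes.

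White adipocyte markers were likewise highest in replicate 2, for 9 of the 11. Cfd, the adipose serine protease adipsin, stood at 242, 896 and 183 CPM, and Adipoq, adiponectin, at 26.3, 47.6 and 12.1 CPM. Lpl, lipoprotein lipase, which heart muscle also makes, was instead lowest there, at 1803, 583 and 1404 CPM. Of the 6 brown adipocyte markers detected, 4 were highest in replicate 3, 1 in replicate 1 and 1 in replicate 2. Ucp1, the uncoupling protein of brown fat, was below the rule for detection. It was singled out after its values were seen and held 569, 2 and 4 counts.

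Pigment and nerve markers completed the components. All 8 melanocyte markers were detected and lowest in replicate 2. Dct, a melanin synthesis enzyme, stood at 103, 10.4 and 40.4 CPM, and Pmel, a melanosome structural protein, at 26.1, 2.25 and 8.77 CPM. Sox10, a factor of neural crest derivatives listed for both pigment and Schwann cells, was even at 7.41, 7.33 and 8.53 CPM. Of the Schwann cell markers 9 of 10 were detected, led by S100b at 30.5 TPM, and of the autonomic neuron markers 5 of 10, led by Uchl1 at 63.2 TPM.

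Cartilage and bone genes, which the study followed in the mutants, had an uneven baseline. Of the 13 chondrocyte markers 10 were detected. Cytl1, a secreted protein made by cartilage, averaged 1686 ± 286 TPM (SD, n = 3), and Chad, the leucine-rich chondroadherin, stood at 250.2, 45.1 and 100.1 CPM. Spp1, osteopontin, stood at 32.6, 8.88 and 114 CPM, a 12.9-fold range between replicates 2 and 3. Runx2, the master factor of bone, held 64, 40 and 36 counts, a level of 0.321 TPM that exceeded only 1.52% of detected genes. Bglap, osteocalcin, held 2, 3 and 1 counts, and Matn1, a cartilage matrilin, had 0 counts in each control.

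**Figure D3:**
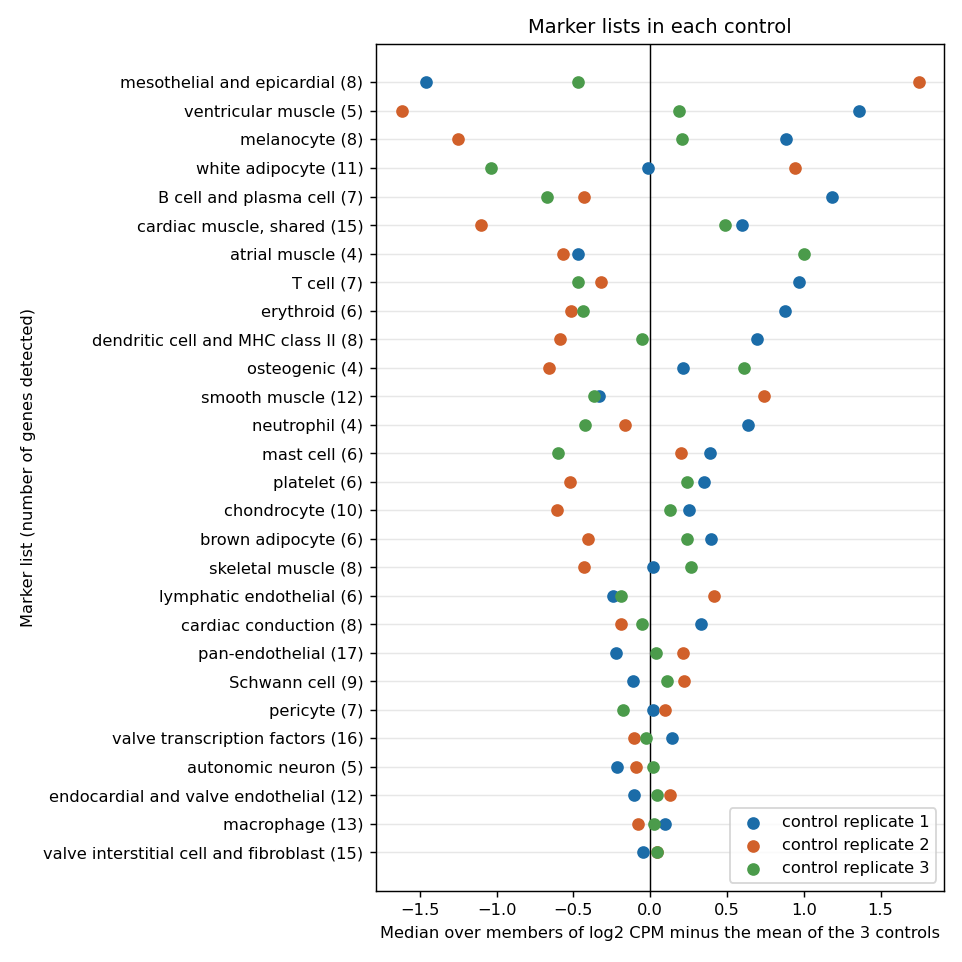
Median over the detected members of each marker list of log2 CPM minus the mean of the 3 controls (horizontal axis), 1 row per list with the number of members and a point for each control. The macrophage and valve interstitial lists lie near 0 in each control, whereas the mesothelial medians run from -1.46 in replicate 1 to 1.75 in replicate 2 and the shared heart muscle median of replicate 2 lies at -1.10.

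Genes that respond quickly to handling and physiology were nearly all detected, and the lists differed in their spread. Of the 15 immediate early genes 1, Fosb, was over 2-fold apart, and it was named after its values were seen. Ier2 stood at 198, 152 and 119.5 CPM and Jun, a subunit of the AP-1 factor, at 374, 278 and 268 CPM, and replicate 3 was lowest for 11 of the 15, beside 28.1% of all detected genes. Heat shock genes were over 2-fold apart for 0 of 10, with Hspb1, a small chaperone, at 491, 576 and 469 CPM. Cell cycle genes were low, with Mki67, the proliferation antigen, at 1.38 TPM on average. None of the 12 was over 2-fold apart, but 11 were highest in replicate 3, beside 28.2% of all detected genes, and the list medians lay at -0.20, -0.18 and 0.36 on the log2 CPM scale from the mean of the controls. Clock genes were over 2-fold apart for 4 of 16 and interferon-stimulated genes for 1 of 11, beside 16.1% of all detected genes. The median SD of log2 CPM was 0.251 for immediate early, 0.281 for heat shock, 0.291 for clock and 0.346 for cell cycle genes, above the median of 0.206 over all detected genes, and 0.193 for interferon-stimulated genes, below it.

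Gene families differed in how much of the family was in use. Sox and Gata factors were detected for 12 of 19 and 5 of 6 members. In either family 0 were over 2-fold apart, beside 16.1% of all detected genes. Sox18, an endothelial Sox factor, averaged 221 TPM and Gata2 was even at 157, 162 and 163 CPM. Klf factors were detected for 14 of 17, led by Klf2, and Wnt ligands for 12 of 19, led by Wnt9b at 94.7 TPM. Foxc1 and Foxc2, forkhead factors of the outflow tract and valves, averaged 90.2 and 85.0 TPM, and Foxc2 stood at 73.7, 74.8 and 75.2 CPM. The Zfp zinc finger genes were nearly all detected, 345 of 367, with 16 (4.64%) over 2-fold apart, below the share over all detected genes. Potassium channels were detected for 64 of 95, with 29 (45.3%) over 2-fold apart, above that share. Olfactory receptors were detected for 6 of 1095, and 1051 of them had 0 counts in each control.

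The spread between the controls was larger than counting error for most genes. The SD over the 3 controls of log2 CPM had a median of 0.206, with quartiles of 0.113 and 0.388, while counting alone would give a median of 0.0419, and 94.0% of the genes exceeded their counting SD. An SD from 3 samples is itself imprecise: its 95% interval, for normal values, runs from 0.521 to 6.28 times the estimate. The highest control was over 4-fold above the lowest for 450 genes and over 10-fold for 57. Genes with a mean of 10 to 100 counts had a median SD of 0.489, those of 100 to 1000 counts 0.245 and those of 1000 to 10000 counts 0.151, but the median was 0.218 above 10000 counts, a class that includes Actc1, Beta-s and Atp5b.

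Replicate 2 carried most of this spread. With it left out and the genes chosen again, the count over 2-fold apart was 758 of 14881 (5.09%), against 1526 of 14856 without replicate 1 and 1759 of 14930 without replicate 3. The common biological coefficient of variation was 0.262 over the 3 controls and 0.186 without replicate 2.

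**Figure D4:**
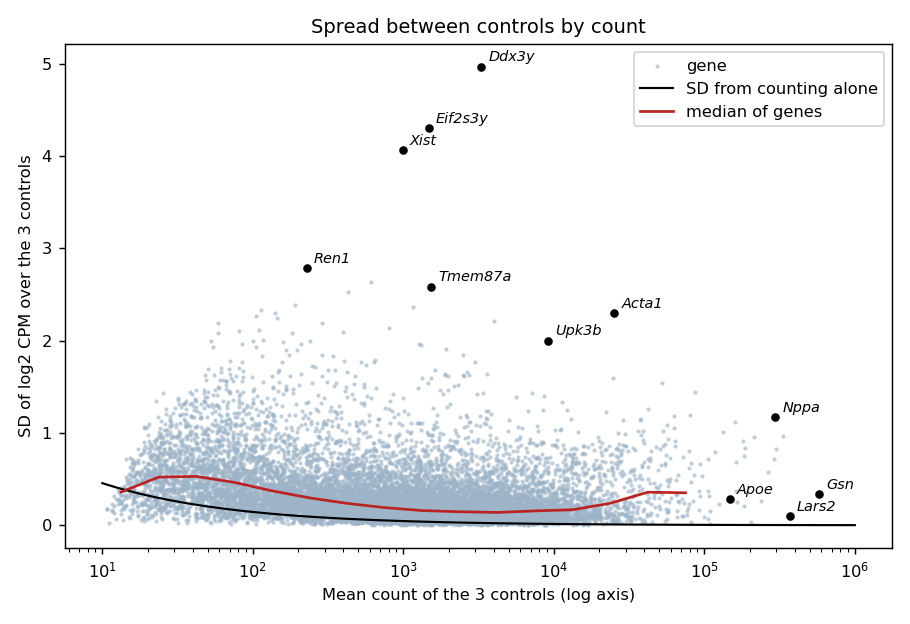
SD of log2 CPM over the 3 controls against the mean count (log axis), with a point for each detected gene and the SD that counting alone would give. The median SD falls from 0.489 at 10 to 100 counts to 0.151 at 1000 to 10000 counts, and 94.0% of genes lie above their counting SD.

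The most variable genes were ranked by that SD among the 12719 detected genes with a mean of 100 or more counts. The ranking was chosen on these values, so they are a description. After the sex-linked genes Ddx3y, Eif2s3y and Xist came Ren1, which encodes renin, at 0.243, 11.5 and 1.95 CPM. Apoo-ps followed at 12.6, 0.771 and 24.0 CPM, and all of its 50-base stretches also occur in Apoo, so its reads cannot be assigned with certainty. Tmem87a, a Golgi membrane protein, stood at 2.05, 59.2 and 32.2 CPM, and Gabra3, a GABA receptor subunit, at 27.3, 38.3 and 1.91 CPM. The library that stood out therefore changed from gene to gene, replicate 1 for Tmem87a and replicate 3 for Gabra3.

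Replicate 2 was nonetheless the library that stood out most often. It was farthest from the others and high for 84 of the 200 most variable genes, and farthest and low for 58. Of all detected genes, replicate 2 was high for 24.4% and low for 24.5%. Among the leading genes high in replicate 2 were Lrrn4, a leucine-rich repeat membrane protein, at 10.1, 204 and 26.3 CPM, and Bnc1, a zinc finger factor of epithelia, at 2.50, 41.3 and 4.34 CPM. Cybrd1, an iron-handling reductase, stood at 1.19, 23.1 and 1.04 CPM, and Tm4sf5, a tetraspanin-like protein, at 0.373, 9.73 and 1.22 CPM.

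Marker genes were part of that ranking. Of the 200 genes 27 were in the marker lists (13.5%), against 1.60% of the eligible genes, a share given with no test. These included all 8 mesothelial markers, 4 of 5 ventricular markers and 5 white adipocyte markers. The valve interstitial, valve transcription factor, endothelial, smooth muscle and macrophage lists had 0 genes among the 200. The 200 were 1.57% of the 12719 eligible genes, and at that share lists of this size could hold none, so nothing is read from these counts. The ranking ended between Vnn1, with an SD of 1.142, and Ppif, with an SD of 1.140.

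With replicate 2 left out of the ranking, the genes that separated replicates 1 and 3 came forward. After the sex-linked genes these were Tmem87a, 15.7-fold higher in replicate 3, and Gabra3, 14.3-fold higher in replicate 1. Stbd1, a glycogen-binding protein, stood at 110.4, 50.9 and 9.99 CPM, and Acta1 was 10.4-fold higher in replicate 1. Mmp3, the matrix protease stromelysin, stood at 62.3, 44.4 and 7.71 CPM, and Clec2l, a C-type lectin-like protein, at 2.31, 3.20 and 16.2 CPM. Of the 200 genes at the top of this ranking 118 were higher in replicate 1 and 82 in replicate 3.

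The least variable genes were ranked in the same way among the 8039 detected genes with a mean of 1000 or more counts. Rbm33, an RNA-binding protein, headed the list with an SD of 0.00094. Rce1, a CAAX protease, stood at 27.3, 27.2 and 27.2 CPM, and Kdm1a, a histone demethylase, at 64.4, 64.2 and 64.4 CPM. Carm1, an arginine methyltransferase, stood at 72.1, 72.5 and 72.5 CPM. Their SDs were smaller than counting error alone would give, so their order is not resolved at this depth. None of the 200 least variable genes was in a marker list, beside 1.87% of the 8039 eligible genes. Membership was not stable, since with 1 control left out 26 to 46 of the 200 were kept.

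The 15 reference genes in common use spanned much of the range of spread. Hprt, a purine salvage enzyme, was the steadiest at 132, 125 and 137 CPM, with an SD of 0.0666 that exceeded 15.5% of the 8039 genes. Gusb, a lysosomal glucuronidase, followed with an SD of 0.0851. At the other end Gapdh, the glycolytic enzyme, stood at 768, 411 and 727 CPM, with a spread that exceeded 90.7% of those genes. Sdha, a subunit of respiratory complex II, and Tfrc, the transferrin receptor, were over 2-fold apart, by 2.13 and 2.15 times. Replicate 2 was the lowest control for Gapdh, Sdha and Tfrc. Actb, cytoskeletal beta-actin, was instead highest there, at 903, 1291 and 744 CPM, so the ratio of Actb to Gapdh differed between the controls.

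**Figure D5:**
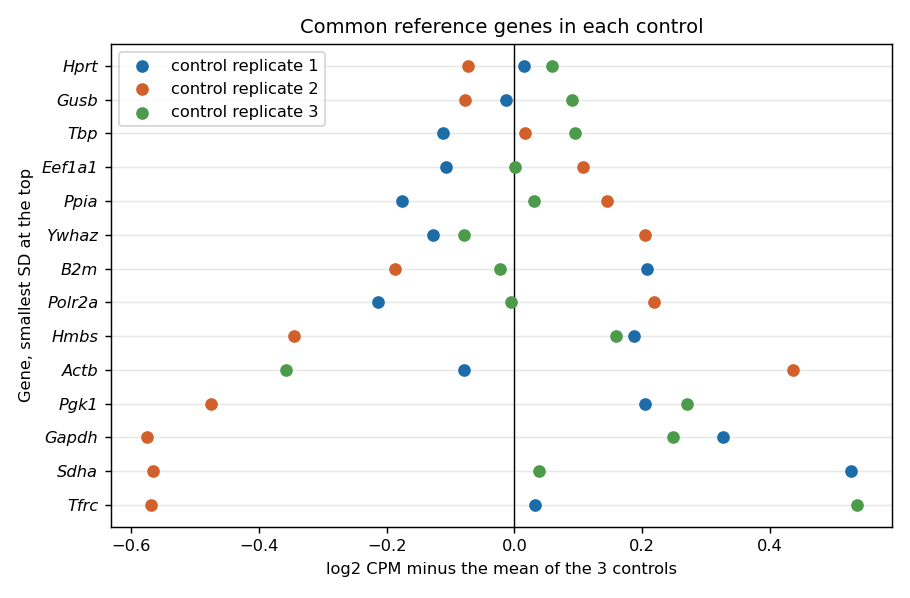
log2 CPM minus the mean of the 3 controls for 14 of the 15 reference genes, ordered by SD, with a point for each control. Hprt, with an SD of 0.0666, keeps the controls together, whereas replicate 2 lies low for Gapdh, Sdha and Tfrc and high for Actb.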

How the data were processed

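The 3 control libraries of aortic valve RNA were analysed out of 6 in the series. The deposited values are estimated counts of fragments per gene that the authors made with Cuffdiff 2.1.1 after alignment to mm10 with TopHat2 2.0.13 and Bowtie2 2.2.1, as the submitters' processing notes name these tools. The paper's methods give a different version of Bowtie2. The annotation is not given in the sources used here. Of the values 1.66% to 1.87% per control were not whole numbers, and the counts were rounded. Genes of the mitochondrial genome and of cytosolic ribosomal proteins, with Rpl13a, Rplp0, Hbb-bt and Muc16, were not analysed here.

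Genes with 10 or more counts in all 3 controls were scaled by TMM in edgeR 4.0.16 (R 4.3.3) to CPM, and TPM used union exon lengths of GENCODE M21, matched for 97.9% of the genes listed. No test was run, since no groups are compared. Spread was the SD of log2 CPM. The most variable 200 genes were ranked among those with a mean of 100 or more counts and the least variable among those with 1000 or more. Named genes were the 20 highest by TPM, the 20 most and 10 least variable, the 3 highest of each list or family, members with 0 counts, and the reference, sex-linked, Acvr1 and Nfatc1 genes. Other genes were named after their values were seen. The members, lists and rules were chosen with earlier results of these data known. In simulated data with the same means and library sizes, 83% of 200 genes given a raised dispersion of 0.5 were recovered by the variability ranking of 12702 genes. This share holds for that simulation only and does not measure how well the ranking works at the spread of these controls. Floors and counting SDs cover counting error only. Sequence sharing was read as 50-base stretches of GENCODE transcripts found on either strand in other genes. Promoters came from RefSeq on GRCm38.p6, with an entry for 11347 of the detected genes. Python 3.11.15 with pandas 2.3.3 and numpy 2.4.6 was used, and DESeq2 1.42.0 gave size factors as an alternative to TMM. Other alternatives changed the count minimum, the length, the measure of spread, or left out each control in turn. Of the 15 reference genes 1 is not reported here by name.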

Additional observations from a re-analysis of the deposited data

How the results depend on the processing

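No paired analysis was possible because no groups are compared. The 100 most abundant genes took 30.8% as a share of TPM. The span of levels was 2.91 on the log10 scale with a minimum of 100 counts and 3.58 to 3.63 with a control left out. By mean transcript length the list shares were 1.27% for valve interstitial cells, 0.474% for fibrillar collagens and 0.711% for proteoglycans. As shares of fragments they were 1.70%, 0.667% and 0.967%, with 0.384% for endothelial markers and 2.97% for oxidative phosphorylation. Without a filter, with 0.5 added to each count, the median SD was 0.265 and 5452 of 18084 genes (30.1%) were over 2-fold apart. With a minimum of 100 counts 1181 of 12262 (9.63%) were. With a control left out, the median SD was 0.125 to 0.200 and 758 to 1759 genes were over 2-fold apart, the lowest count without replicate 2. Of the 200 most variable genes 68 to 151 were kept with a control left out, the fewest without replicate 2, and of the least variable 26 to 46. The least variable list shared 86 genes with a ranking corrected for the trend with count and 60 with one by tagwise dispersion. In replicate 2 the median deviation on the log2 scale lay between -0.86 and -0.74 for shared heart muscle, 0.51 and 0.55 for smooth muscle and 1.06 and 1.60 for mesothelium when another control was left out. No deviation on the log2 scale changed sign in these alternatives, while counts, shares, TPM and SDs cannot be negative and so could not. Scaling moved the median of all genes by at most 0.06 on the log2 scale. The detected genes numbered 12262 to 16226. Genes with few counts, near the floor of 3, cannot be ranked at this depth, and an SD from 3 controls is imprecise.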

Other observations

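The Hox genes detected were highest in replicate 2. Of the 39 Hox genes, which carry positional identity along the body axis, 13 were detected. All 13 were highest in replicate 2, beside 39.5% of all detected genes, and all 13 were over 2-fold apart, beside 16.1%. They were low, with a median of 2.38 TPM, and only 4 had a mean of 100 or more counts. The spread of all genes was larger below that count. Hoxd9 stood at 2.52, 7.29 and 3.19 CPM in replicates 1, 2 and 3, and Hoxb2 at 4.18, 11.0 and 4.52 CPM. Between replicates 1 and 3 the difference was over 2-fold for 6 of the 13, beside 4.81% of all detected genes. Claudins were detected for 10 of 26, with 8 of the 10 highest in replicate 2, beside 39.5% of all detected genes. Cldn15, a paracellular channel claudin, stood at 7.74, 94.6 and 12.6 CPM, whereas Cldn5, the endothelial claudin, stood at 96.2, 120.3 and 100.5 CPM. Keratins were detected for 13 of 47. Of these 7 were highest in replicate 2 and 6 in replicate 3, beside 39.5% and 28.2% of all detected genes. They were led by Krt19, a member of the mesothelial list, at 18.9, 166 and 30.9 CPM. Itga8, an integrin subunit of smooth muscle and fibroblasts, stood at 408, 1060 and 400 CPM.

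Chemokines were detected for 23 of 38. Ccl19, a homing chemokine, was the most abundant per length at 216 TPM and stood at 73.1, 34.2 and 78.0 CPM, with replicate 2 low. Cxcl12, a chemokine of stromal cells, stood at 241, 156 and 193 CPM. Matrix metalloproteinases were detected for 15 of 23, led by Mmp2, a gelatinase, at 409, 282 and 387 CPM. Igfbp5, a secreted IGF-binding protein, stood at 1342, 2276 and 1261 CPM.

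Some of the most variable genes lay near each other. On GRCm38, chr2:120000001-125000000 held 5 of the 200 among 48 eligible genes (10.4%), beside 1.57% of all eligible genes. They were Ckmt1, Jmjd7, Pla2g4b, Spata5l1 and Tmem87a. The window was named after its values were seen, and no test was run. Of the 50-base stretches of Jmjd7, 60.9% lie in genes that overlap it. Chromosome 2 as a whole held 26 of the 200 among 1000 eligible genes (2.60%).

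Per-gene length differed between the sets. The median summed exon length was 2962 bases for the most variable genes, 4532 bases for the eligible genes and 4457 bases for the least variable. Across 14499 genes, which are not independent replicates, the Spearman correlation of length with the deviation of log2 CPM was -0.14 in replicate 1, 0.19 in replicate 2 and -0.13 in replicate 3. The part of length in the spread was not tested.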
